A study of Mus musculus with 58 samples.

Results

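The genes examined were 9 transcription factor and cofactor genes of the erythroid and megakaryocytic programme, Gata1, Gata2, Klf1, Zfpm1, Gfi1b, Tal1, Lmo2, Nfe2 and Fli1. They were chosen by name as rows of a count table with 23152 gene symbols, and all 9 were present with counts in both cell populations. The table holds 58 single cells from the bone marrow of wild type C57BL/6 mice, 34 long-term haematopoietic stem cells (LT-HSC) and 24 common myeloid progenitors (CMP), and the study's design compares these gates. LT-HSC were sorted as Lin- Kit+ Sca1+ Flt3- CD34- cells and CMP as Lin- Kit+ Sca1- CD16/32- CD34+ cells. No treatment, age or animal is given in the labels, which also carry a passage entry of 8-10 for all cells. Because no animal is named, each gate counts as 1 sample, no test was made, and every interval is a 95% interval for counting error only. The sources used here do not say whether a count is a read or a molecule, and with reads the intervals are too narrow.

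GATA factors are zinc finger proteins that bind the letters GATA in DNA. As textbook background, Gata2 acts in stem and early progenitor cells, and Gata1 takes over its sites as cells become erythroid, the so-called GATA switch. Gata1 also acts in megakaryocytic, mast and eosinophil cells. Gata1 works with the cofactor Zfpm1 (FOG-1), which does not bind DNA itself, and in a complex with the basic helix-loop-helix factor Tal1 and the bridging protein Lmo2. Klf1 binds CACCC elements of erythroid genes, whereas Fli1, an ETS factor, drives megakaryocyte genes and opposes Klf1. Gfi1b is a repressor that both lineages need, and Nfe2 is the larger subunit of a factor needed for platelet release.

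Cells held between 45022 and 860553 counts, with a median of 236774 for LT-HSC and 290977 for CMP, and the gates summed to 9931131 and 7062737 counts. Stem cell markers (8 genes, such as Procr and Hlf) made up a median of 7.62 per 10000 counts in LT-HSC and 0.704 in CMP, and granulocyte and monocyte progenitor markers (6 genes, such as Mpo) 3.62 and 51.1, which follows the gate labels. The stem cell markers still overlapped between the gates, with a lowest LT-HSC value of 0.595 and a highest CMP value of 5.19 per 10000. All 34 LT-HSC lacked counts of Xist, as did CMP 1 and 2 but none of the other 22 CMP. Xist is the RNA that female cells express from their silenced X, so gate and donor sex cannot be told apart for most cells, and Gata1 lies on the X chromosome. Runs of cell numbers also stood apart within each gate, LT-HSC 1 to 16 from 17 to 34 and CMP 1 to 16 from 17 to 24. No label explains these runs, and values are given by run where they differ. CMP detected more genes at equal depth: with each cell thinned at random to 97978 counts, the median was 3315 genes in LT-HSC and 5500 in CMP.

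Promoter sequences are shown for the 3 genes with the largest ratios between the gates, Gata1, Klf1 and Zfpm1, and for Gfi1b, whose levels lay close together in the gates. Each is the 250 bases before the start site in RefSeq's annotation of GRCm38.p6, 5′ to 3′ along the gene. Capitals mark GATAA, the core that GATA factors bind, and CACCC, the core that Klf1 binds, on either strand, so that TTATC and GGGTG are the same motifs on the opposite strand.
Gata1, chrX:7967911-7968160, minus strand: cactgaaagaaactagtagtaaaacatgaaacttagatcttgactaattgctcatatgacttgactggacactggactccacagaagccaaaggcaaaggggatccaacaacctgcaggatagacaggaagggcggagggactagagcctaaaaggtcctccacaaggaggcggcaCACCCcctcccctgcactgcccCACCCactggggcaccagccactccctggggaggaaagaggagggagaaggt
Klf1, chr8:84901732-84901981, plus strand: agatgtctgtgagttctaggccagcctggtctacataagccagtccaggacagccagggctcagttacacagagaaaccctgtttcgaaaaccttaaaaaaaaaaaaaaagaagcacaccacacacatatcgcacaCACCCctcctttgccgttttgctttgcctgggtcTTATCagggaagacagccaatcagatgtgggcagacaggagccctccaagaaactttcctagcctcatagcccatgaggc
Zfpm1, chr8:122281891-122282140, plus strand: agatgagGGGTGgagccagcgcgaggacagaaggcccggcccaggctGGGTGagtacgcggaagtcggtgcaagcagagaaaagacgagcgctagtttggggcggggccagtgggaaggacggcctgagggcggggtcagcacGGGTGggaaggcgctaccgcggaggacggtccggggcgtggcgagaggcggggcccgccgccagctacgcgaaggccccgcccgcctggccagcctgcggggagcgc
Gfi1b, chr2:28621983-28622232, minus strand: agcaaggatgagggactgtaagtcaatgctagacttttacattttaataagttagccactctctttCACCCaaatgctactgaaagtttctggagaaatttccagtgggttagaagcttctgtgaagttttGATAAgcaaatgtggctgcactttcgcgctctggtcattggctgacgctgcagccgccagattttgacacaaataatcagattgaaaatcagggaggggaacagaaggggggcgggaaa
The search covered the 300 bases from 250 before to 50 after the start. Gata1 held CACCC 74 and 52 bases before its start and no GATAA in this window. That start lies inside the gene's GENCODE coordinates (chrX:7959260-7978071, minus strand), and the 5′ end of this span was not searched. In Klf1 the window held GATAA 80 bases and CACCC 114 bases before the start, with another CACCC in the 50 bases after it. Zfpm1 held 3 CACCC and no GATAA. The Gfi1b window had GATAA 119 and CACCC 184 bases before the start. Of 32851 mouse promoters of this length, 25.4% held GATAA and 57.5% held CACCC, so either motif is common and a match describes these letters only. Among the other members, Tal1 held GATAA in 1 of its windows, Gata2 held none, and Lmo2, Nfe2 and Fli1 had no entry in the promoter table.

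Summed over cells, Gata1, Zfpm1 and Klf1 were higher in CMP, and the other 6 genes lay within 2-fold of each other between the gates. That made 3 of 9 genes at least 2-fold higher in CMP, beside 28.1% of the 10937 genes with at least 20 counts, and 0 of 9 at least 2-fold higher in LT-HSC, beside 22.7%. A share of 3 in 9 is close to the background. Both counts moved with the cells that stood for a gate. Gata2 also passed 2-fold towards CMP with LT-HSC 1 to 16 (4 of 9, beside 37.3% of all genes) and with CMP 17 to 24 (4 of 9, beside 27.8%), and Klf1 no longer did with CMP 1 to 16 (2 of 9, beside 27%). In the other direction, Lmo2 and Nfe2 passed 2-fold towards LT-HSC with CMP 1 to 16 (2 of 9, beside 25.2% of all genes), Gfi1b and Tal1 with CMP 17 to 24 (2 of 9, beside 31.1%), and Gfi1b, Lmo2 and Nfe2 in cells without Xist (3 of 9, beside 46.2%). For the 9 genes the log2 ratio, LT-HSC over CMP, had a median of −0.48, and for all genes of −0.13. Ratios throughout are of CPM, the count scaled to a gate's or a cell's total, with 0.5 added to each gate's count.

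**Figure D1:**
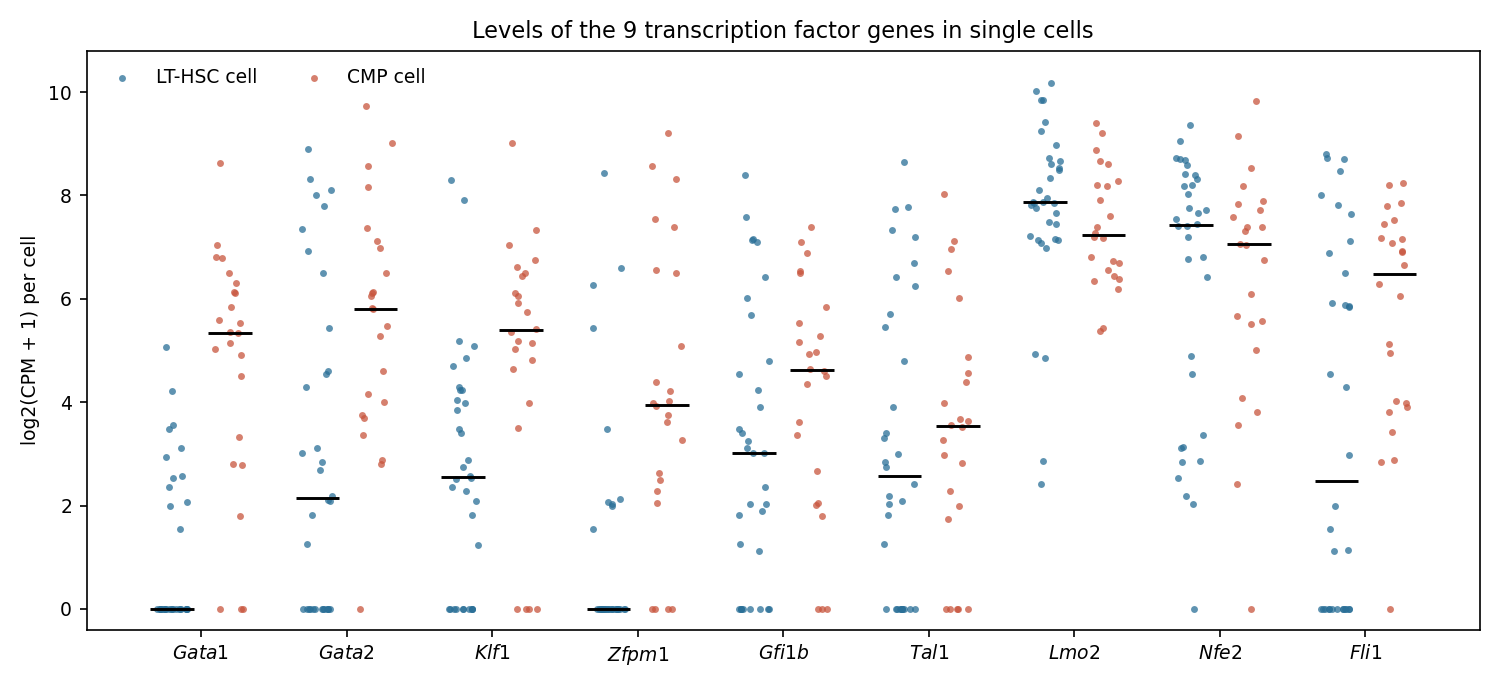
Each point is 1 cell, the y axis is log2(CPM + 1) of the gene in that cell, blue points are the 34 LT-HSC, red points the 24 CMP, and black lines are medians over cells. The LT-HSC median of Gata1 and of Zfpm1 lies at 0, while Lmo2 has counts in every cell of both gates.

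Gata1, the factor required for erythroid and megakaryocyte maturation (mm10 chrX:7959260-7978071, minus strand), differed most. An LT-HSC held 0 to 7 Gata1 counts with a median of 0, and a CMP 0 to 170 with a median of 7.5. Counts overlapped at the low end only, since 11 of 24 CMP and 0 of 34 LT-HSC reached 10 counts. Pooled, Gata1 stood at 2.62 CPM over LT-HSC (interval 1.71 to 3.84) and 65.8 over CMP (60.0 to 72.1), a log2 ratio of −4.63 (−5.28 to −4.08), or 24.7-fold higher in CMP. CMP 19 alone gave 36.6% of the CMP counts. Without any 1 cell the log2 ratio lay between −5.04 and −4.06, and in cells without Xist it was −3.85. Any count was seen in 12 LT-HSC and 21 CMP, and in 3 of 30 and 17 of 22 cells after thinning.

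The few Gata1 counts of the LT-HSC fell mostly in the first run of cells. LT-HSC 1 to 16 held 24 of the 26 counts, in 10 of 16 cells, while LT-HSC 17 to 34 held 2 counts in 2 of 18 cells, 0.307 CPM (interval 0.0371 to 1.11). The log2 ratio to CMP was −3.20 with LT-HSC 1 to 16 and −7.43 with LT-HSC 17 to 34. Low counts of late erythroid genes showed the same split. Rhd, Kel, Ermap and Rhag, membrane and blood group genes of red cells, together held 103 counts in LT-HSC 1 to 16, with a count in 16 of 16 cells and no gene above 5 in any cell, and 10 counts in LT-HSC 17 to 34. The erythroid carbonic anhydrase Car1 ran from 15 to 68 counts per cell (median 45) in LT-HSC 1 to 16 and from 0 to 7 (median 3) in LT-HSC 17 to 34. The mature erythroid markers Slc4a1 and Alas2 were at 0 in every LT-HSC. In CMP the same 4 genes held 404 counts in CMP 1 to 16 and 32 in CMP 17 to 24. The part of such low counts in the Gata1 values was not tested.

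Zfpm1, the Gata1 cofactor (chr8:122282141-122337251, plus strand, overlapped on that strand by Gm20388, which is not in the table), followed with 13.1 CPM over LT-HSC (interval 10.9 to 15.5) and 74.2 over CMP (68.0 to 80.8). LT-HSC held 0 to 77 counts with a median of 0, and CMP 0 to 190 with a median of 3.5, so the gates overlapped widely. The log2 ratio was −2.50 (−2.79 to −2.22), 5.65-fold higher in CMP. A single cell dominated each gate, with LT-HSC 23 giving 59.2% of the LT-HSC counts and CMP 7 giving 36.3% of the CMP counts. Leaving out LT-HSC 23 moved the log2 ratio to −3.75, and leaving out CMP 7 to −1.92. By run the ratio lay between −2.59 and −2.33, and in cells without Xist it was −1.97.

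Klf1, the erythroid factor (chr8:84901928-84905291, plus strand), stood at 32.0 CPM over LT-HSC (interval 28.6 to 35.7) and 83.1 over CMP (76.5 to 90.1). Cells ranged from 0 to 200 counts in LT-HSC (median 1) and from 0 to 222 in CMP (median 8.5). The log2 ratio was −1.38 (−1.58 to −1.18), 2.59-fold higher in CMP. LT-HSC 33 gave 62.9% of the LT-HSC total, and leaving it out moved the log2 ratio to −2.68. CMP 19 gave 37.8% of the CMP counts, and without it the ratio was −0.78, short of 2-fold. With only CMP 1 to 16 it was −0.97, also short of 2-fold. At least 10 counts were present in 3 LT-HSC and 11 CMP. Low Klf1 counts were present in 15 of 16 cells of LT-HSC 1 to 16, none above 10, and in 9 of 18 cells of LT-HSC 17 to 34, where LT-HSC 28 and 33 held 50 and 200.

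Gata2, the GATA factor of stem and early progenitor cells (chr6:88193891-88207032, plus strand), was present in both gates at 64.6 CPM over LT-HSC (interval 59.7 to 69.8) and 99.8 over CMP (92.6 to 107). LT-HSC held 0 to 183 counts (median 1) and CMP 0 to 192 (median 10), with full overlap at the top. The log2 ratio of −0.63 (−0.78 to −0.47) depended on which cells entered. It was −1.43 with LT-HSC 1 to 16, −0.33 with LT-HSC 17 to 34, 0.046 with CMP 1 to 16 and −1.36 with CMP 17 to 24. In cells without Xist, where CMP 1 held 48 counts and CMP 2 none, it was 0.78. In LT-HSC the counts were concentrated in few cells, since 9 of 34 reached 10 counts and 13 of 34 had none.

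Tal1 and Lmo2, the partners of GATA factors in their shared complex, lay within 2-fold between the pooled gates. Tal1 (chr4:115056426-115071755, plus strand) stood at 47.2 CPM over LT-HSC (interval 43.0 to 51.7) and 43.8 over CMP (39.0 to 48.9), and the interval of its log2 ratio of 0.11, from −0.10 to 0.32, included 0. Counts of Tal1 ran from 0 to 121 in LT-HSC and from 0 to 98 in CMP, with medians of 1 and 2. Its ratio was −0.26 with CMP 1 to 16, 1.12 with CMP 17 to 24 and −0.75 in cells without Xist. Lmo2 (chr2:103957986-103981878, plus strand) was the only member with counts in all 58 cells. It ran from 1 to 362 counts in LT-HSC (median 55) and from 7 to 251 in CMP (median 43). Its CPM was 327 over LT-HSC (316 to 338) and 188 over CMP (179 to 199), a log2 ratio of 0.79 (0.70 to 0.89) that reached 1.02 without CMP 17, 1.26 with CMP 1 to 16 and 0.22 with CMP 17 to 24. An antisense gene overlaps Lmo2, and reads cannot be assigned to a strand from the sources used here.

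Gfi1b, the repressor (chr2:28609450-28621982, minus strand), was at 40.2 CPM over LT-HSC (interval 36.3 to 44.3) and 33.1 over CMP (29.02 to 37.7). Both gates held cells with none, and the highest cells had 102 counts in LT-HSC and 44 in CMP. The log2 ratio was 0.28 (0.042 to 0.52) from pooled counts and −0.07 from the mean of each cell's CPM. It was −0.22 with CMP 1 to 16 and 2.07 with CMP 17 to 24, where Gfi1b held 24 counts in all and 15 of them in CMP 22.

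Nfe2 and Fli1, factors of megakaryocyte maturation, also lay within 2-fold between the pooled gates. Nfe2 (chr15:103248212-103258403, minus strand) was at 185 CPM over LT-HSC (interval 176 to 193) and 135 over CMP (127 to 144), a log2 ratio of 0.45 (0.34 to 0.56). It ran from 0 to 278 counts in LT-HSC (median 23.5) and from 0 to 138 in CMP (median 35). Its ratio was 1.07 with CMP 1 to 16, −0.25 with CMP 17 to 24 and 2.74 in cells without Xist. Fli1 (chr9:32422204-32542861, minus strand) was at 71.8 CPM over LT-HSC (66.6 to 77.3) and 100 over CMP (92.9 to 108), a log2 ratio of −0.48 (−0.63 to −0.33). Most CMP held Fli1, with a median of 33.5 counts (0 to 86), whereas the LT-HSC median was 1 (0 to 139) and 13 of 34 had none. Several predicted genes overlap Fli1, Gm27201 of them on the opposite strand, and none is in the table. The Fli1 ratio stayed between −0.62 and −0.20 over the runs of cells.

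**Figure D2:**
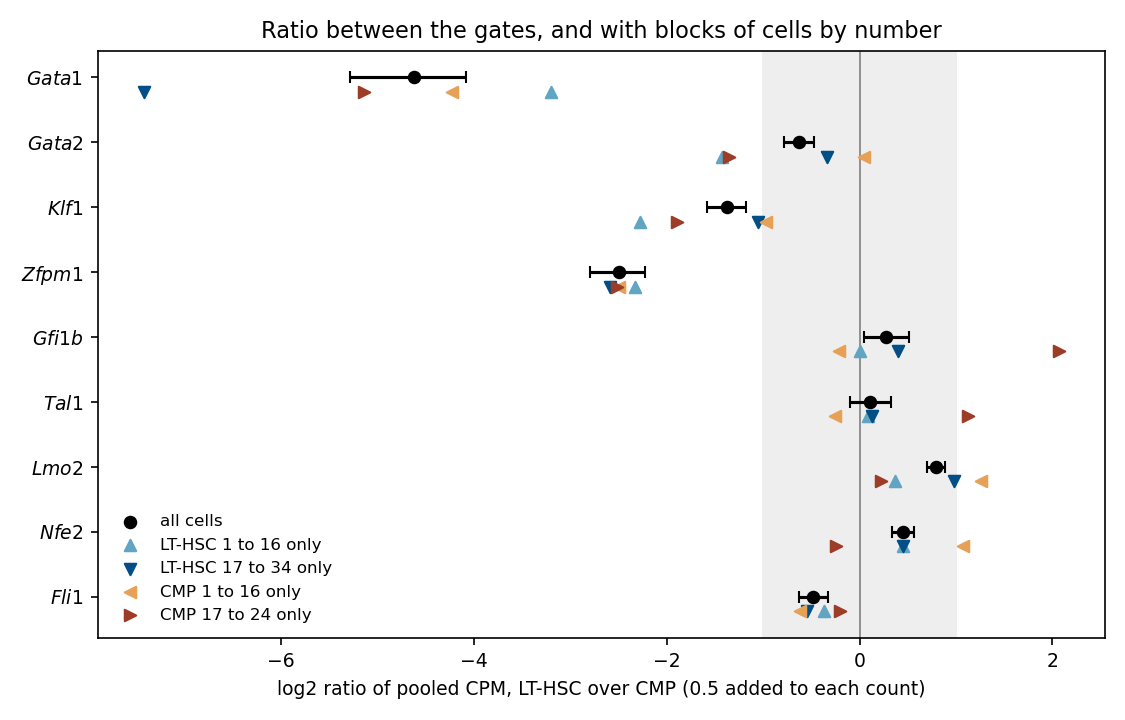
Black points are log2 ratios of pooled CPM, LT-HSC over CMP, with 95% counting intervals, coloured triangles are the ratios with 1 run of cells standing for its gate, and the grey band marks ratios within 2-fold. Gata1 and Zfpm1 stay left of the band with every run, Klf1 enters it with CMP 1 to 16 only, and Gata2, Gfi1b, Tal1, Lmo2 and Nfe2 change side or leave the band with a run of CMP.

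Within single cells, CMP carried more of these genes together than LT-HSC. All 9 had a count in 16 of 24 CMP (66.7%, exact Clopper-Pearson interval 44.7 to 84.4%) and in 1 of 34 LT-HSC (2.94%, 0.0744 to 15.3%), which was LT-HSC 21. The median number of members with a count was 9 in CMP (5 to 9) and 6 in LT-HSC (4 to 9), and after thinning it was 8 and 5. This difference is shared by most genes: 7 of 9 members, and 85.6% of the 10937 genes, had counts in a larger share of the CMP, and after thinning 8 of 9 members and 81.9% of the genes did. With at least 10 counts required, the median was 5 members per CMP and 2.5 per LT-HSC, and no cell of either gate held all 9.

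**Figure D3:**
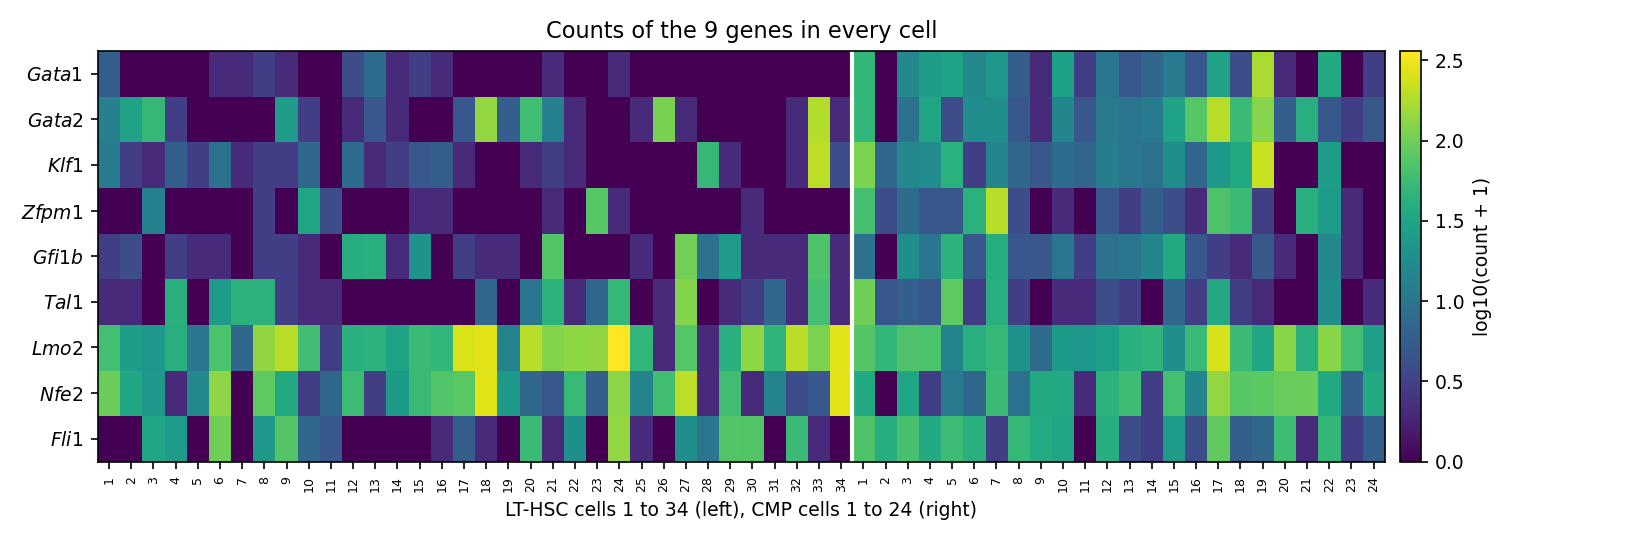
Columns are the 58 cells by number, rows are the 9 genes, and colour is log10(count + 1). Gata1 is dark across LT-HSC 17 to 34 apart from single counts, and CMP 2, 9, 11, 14, 20, 21, 23 and 24 lack counts of 1 to 4 genes.

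Among CMP with at least 10 counts, Gata1 and Klf1 occurred together in 9 cells, while 2 cells held Gata1 alone, 2 Klf1 alone and 11 neither. Gata1 and Gata2 were together in 8 CMP, 3 held Gata1 alone and 5 Gata2 alone. All 5 CMP with at least 10 Tal1 counts, cells 1, 5, 7, 17 and 22, also had at least 10 Gata1 counts. Of the 7 CMP with that much Zfpm1, 5 had it of Gata1, and CMP 18 and 21 did not. The opposed pair Klf1 and Fli1 shared 8 CMP, with 3 holding Klf1 alone and 6 Fli1 alone. In LT-HSC no cell reached 10 counts of Gata1, so it formed no pair there. Gata2 and Tal1 shared 2 LT-HSC, Gata2 and Fli1 shared 3, and Klf1 and Fli1 shared none, with 3 and 12 cells holding 1 of them.

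**Figure D4:**
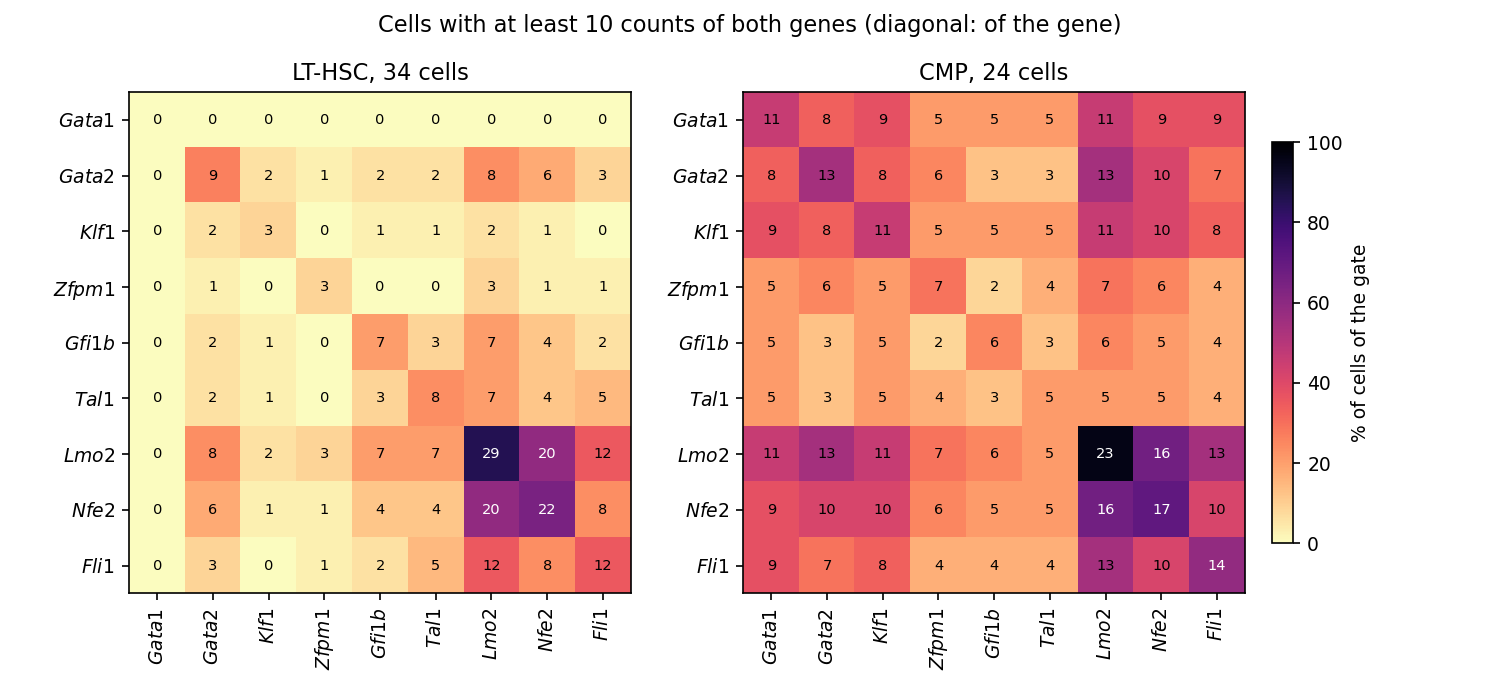
Each square gives the number of cells with at least 10 counts of both genes, with the diagonal giving the cells for the gene itself, and colour is the percentage of the gate's cells. Gata1 pairs with every other member in 5 to 11 of 24 CMP and with none in LT-HSC.

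The GATA, Tal1 and Lmo2 complex also contains Ldb1, a dimerising adaptor, and Tcf3, the Tal1 partner. Counts of all 5 genes of the Gata1 form were present in 15 of 24 CMP and 3 of 34 LT-HSC. The Gata2 form gave the same numbers, 15 and 3. At 10 counts each form was complete in CMP 1, 7 and 17 and in no LT-HSC. After thinning, the Gata1 form was complete in 7 of 22 CMP and 0 of 30 LT-HSC. Gata2, Tal1, Lmo2 and Fli1 with Runx1, Erg and Lyl1 form the heptad of factors known to bind together in stem and progenitor cells. Its 7 genes all had a count in 11 of 24 CMP and 4 of 34 LT-HSC, and no cell held 10 counts of each. Beside these sets, the median of the 10937 genes had a count in 66.7% of CMP and 29.4% of LT-HSC. After thinning these shares were 45.5% and 20%. Random sets of the same sizes were not compared, so the difference is not shown to be particular to the complexes or the heptad. Of the 3 heptad partners, Lyl1 was higher in LT-HSC at 292 CPM against 90.3 (log2 ratio 1.69, interval 1.57 to 1.82). Erg stood at 40.0 and 44.9 CPM and Runx1 at 87.1 and 127 CPM, both within 2-fold.

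Levels over the 24 CMP were compared by Spearman's rho of CPM, as a description, since the cells share library pools and the scale set by their totals. Gata1 went with Klf1 (rho 0.61), Tal1 (0.60), Gfi1b (0.55), Gata2 (0.39), Zfpm1 (0.33) and Fli1 (0.33), and not with Nfe2 (0.015) or Lmo2 (−0.0026). Klf1 and Fli1 had a rho of 0.0057. Spi1, which encodes PU.1 and is known to oppose Gata1, had a rho of −0.54 with Gata1, and yet 8 of the 11 CMP with at least 10 Gata1 counts also held at least 10 Spi1 counts. CMP 6, with 111 CPM of Gata1, held no Spi1 count, and CMP 23, with 609 CPM of Spi1, held no Gata1 count. Gata2 and the granule gene Mpo had a rho of −0.57, although all 24 CMP carried at least 10 Mpo counts. Mpo was widespread in CMP 17 to 24 also where Gata1 and Klf1 were high, with 1273 CPM in CMP 19. In LT-HSC the rho of Gata1 with Mpo was −0.58 over all 34 cells, −0.42 within LT-HSC 1 to 16 and −0.06 within LT-HSC 17 to 34, where Mpo had counts in 2 of 16 cells of LT-HSC 1 to 16 and 16 of 18 of LT-HSC 17 to 34, the reverse of the Gata1 split.

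**Figure D5:**
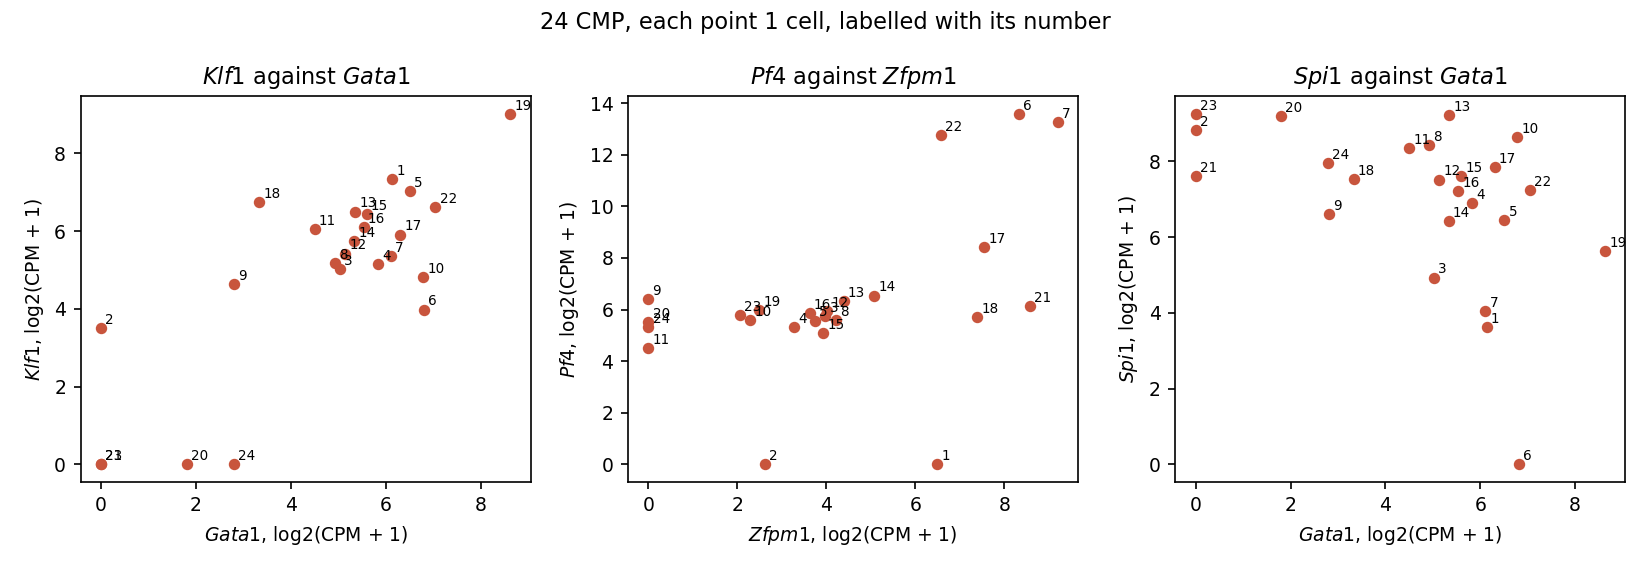
Each point is 1 of 24 CMP, labelled with its number, and axes are log2(CPM + 1). CMP 19 is highest for Gata1 and Klf1, CMP 6, 7 and 22 stand above all other cells in Pf4, and CMP 2, 21 and 23 have Spi1 without Gata1.

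Single CMP carried distinct combinations. CMP 19 had the highest Gata1 (395 CPM) and Klf1 (516 CPM) with 286 CPM of Gata2. It also had the highest share of the erythroid list, 54.7 per 10000 counts against a CMP median of 22.4. Car1 was at 1879 CPM in it, below the 1927 CPM of CMP 21, which had no count of Gata1 or Klf1. CMP 19 also held 207 CPM of the water channel gene Aqp1 and 346 CPM of Tspo2. Its Zfpm1 was 4.64 CPM and its Tal1 2.32 CPM. CMP 1 came next to it in Klf1 at 160 CPM and held 139 CPM of Tal1, 89.2 of Zfpm1 and 205 of Aqp1.

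CMP 6, 7 and 22 stood apart by megakaryocyte genes, which made up 165, 156 and 104 per 10000 of their counts and at most 17.6 in any other CMP. The platelet chemokine gene Pf4 gave most of these shares, at 12239, 9878 and 6978 CPM in these cells, and at 0 to 342 in the rest. Other platelet genes varied. Gp1bb was at 341, 816 and 143 CPM and Itga2b at 422, 383 and 229. Gp9 was at 88.9, 291 and 3.75 CPM, and Gp5 at 200, 337 and 0. The platelet markers Gp6 and Tubb1 had no count in any CMP. Zfpm1 was 318, 587 and 93.8 CPM in them, against a CMP median of 14.5. High Zfpm1 was not limited to these cells. CMP 21, 17 and 18 held 382, 186 and 167 CPM of it, more than CMP 22, with Pf4 at 68.5, 342 and 51.6 CPM. Their Gata1 was 111, 68.0 and 131 CPM, against a median of 39.6. Fli1 was 304 and 184 CPM in CMP 6 and 22 but 6.18 CPM in CMP 7. Klf1 was 14.8, 40.2 and 97.5 CPM, against a median of 41.0. The 3 cells differed in granulocyte and monocyte genes, at 2.15, 2.81 and 78.3 per 10000 counts, against a CMP median of 52.8. CMP 22 thus held genes of both branches, with 2735 CPM of Mpo and 2502 CPM of the granule gene Elane. High granule genes were shared by its run and not particular to it. In all 8 cells of CMP 17 to 24, Mpo was at least 1210 CPM and Elane at least 989 CPM. Granulocyte and monocyte genes made up 35.8 to 102 per 10000 counts there, with a median of 70.4. Over all CMP, the rho with the share of megakaryocyte genes was 0.64 for Zfpm1, 0.61 for Gata2, 0.49 for Gata1, 0.20 for Klf1 and 0.023 for Fli1.

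Other CMP stood out by Gata2. CMP 16 held the highest Gata2 at 849 CPM with 45.3 CPM of Gata1, CMP 17 held 517 CPM with 78.1, and CMP 18 held 164 CPM with 9.10. CMP 21 had 382 CPM of Gata2, 382 of Zfpm1 and the highest Nfe2 at 910 CPM, and no count of Gata1, Klf1, Gfi1b or Tal1, where 3 counts would be 29.4 CPM. CMP 20, 23 and 24 held at most 5.94 CPM of Gata1 and no Klf1, with Spi1 at 583, 609 and 247 CPM.

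Some LT-HSC carried high counts of other members with no Gata1. LT-HSC 33 held 200 Klf1, 183 Gata2, 70 Gfi1b and 62 Tal1 counts among 829389, and 0 of Gata1 and Zfpm1, which allows up to 3.62 CPM of each. Of megakaryocyte and platelet genes, the same cell held 278 Itga2b, 60 Gp5 and 46 Gp9 counts, and none of Pf4, Gp1bb, Treml1 or Gp1ba. LT-HSC 27 held 121 Tal1, 102 Gfi1b and 200 Nfe2 counts, with 1 of Gata2 and none of Gata1 or Klf1. LT-HSC 28 held 50 Klf1 counts and 8 of Gfi1b, with none of Gata2 or Tal1. In LT-HSC 23, the source of most Zfpm1, there were 77 Zfpm1 counts, and Gata1, Gata2, Klf1, Gfi1b and Fli1 were at 0. That cell also held 89 counts of Mpo and 80 of the mast cell gene Cpa3.

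Genes that followed a member most closely over the 24 CMP were taken from 7262 candidates by Spearman's rho. Those for Gata1 were Usp48 (0.74), Rpp14 (0.73), Lamtor3 (0.73), Sephs1 (0.70) and Rpp38 (0.68). Gata2 was followed by Lonp1 (0.76), Skil (0.75), Vamp5 (0.74), a gene listed under the date 8-Sep (0.74) and Smim5 (0.73). For Klf1 they were Per1 (0.74), Aqp1 (0.73), Tlcd2 (0.68), Chtf8 (0.68) and Dusp19 (0.66). Fli1 was followed by Cenpf (0.72), Armc5 (0.68), Uevld (0.68), Vcl (0.67) and Ccnb1 (0.66). Of these 20 genes, Aqp1 alone was in one of the lists, the erythroid one. For Zfpm1, looked at after its values were seen, the first was Gp9 (0.76), a platelet glycoprotein gene. With 24 cells and this many candidates, the highest values are selected extremes, and 1% of the candidates for Gata1 had a rho above 0.59.

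Genes that these factors are known to act on were compared next. Of 34 erythroid target and effector genes with at least 20 counts, 19 stood 2-fold or more above LT-HSC in CMP, 3 the other way round, and the median log2 ratio was −1.07. Of all genes with at least 20 counts, 28.1% and 22.7% did so. Low ratios were those of Mfsd2b, a lipid exporter of red cells (0.806 CPM over LT-HSC and 65.1 over CMP, log2 −6.25), and Aqp1 (1.41 and 50.5 CPM, −5.12). The highest were Nfia (26.3 and 9.06 CPM, 1.53), Car2 (1646 and 659 CPM, 1.32) and Hemgn (41.5 and 20.2 CPM, 1.03). The erythroid median turned to 0.38 with CMP 17 to 24 alone, the run with few counts of red cell membrane genes.

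Of 20 megakaryocyte target and effector genes, 10 passed 2-fold towards CMP and 4 towards LT-HSC, the median being −1.12, where 28.1% and 22.7% of all genes did. Treml1 and Gp1ba, platelet surface genes, had no count in LT-HSC and 16.8 and 11.5 CPM in CMP, at least 55.8-fold and 38.0-fold higher against a floor of 3 counts over the LT-HSC pool. Gp1bb stood at 1.81 CPM over LT-HSC and 56.5 over CMP (log2 −4.92), with 66.2% of the CMP counts in CMP 7. In contrast Selp (7.45 and 1.42 CPM, 2.34) and Mmrn1 (21.04 and 5.10 CPM, 2.03) were higher in LT-HSC. The median turned to 4.13 in cells without Xist, where CMP 1 and 2 held no Pf4 or Itga2b.

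Of 41 complex partners and cofactors, all with at least 20 counts, 19 passed 2-fold towards CMP and 2 towards LT-HSC, the median being −0.75. The shares of all genes were 28.1% and 22.7%. The acetyltransferase gene Crebbp had 2 counts in LT-HSC (0.201 CPM) and 41.6 CPM in CMP (log2 −7.37, interval −10.74 to −5.83), but a count in only 7 CMP. Rcor1, a subunit of the complex that Gfi1b recruits, had 1 count in LT-HSC and 10.5 CPM in CMP (−6.13, interval −12.02 to −4.18), with 75.7% of the CMP counts in CMP 3. Maff was at 1.11 and 17.4 CPM (−3.92). At the other end stood Lyl1, Ssbp4 (109 and 40.3 CPM, 1.43) and Ssbp2 (159 and 85.2 CPM, 0.90), the latter pair encoding proteins that bind Ldb1.

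Genes of the granulocyte and monocyte branch gave the reference for the opposite fate. Of 13 with at least 20 counts, 8 passed 2-fold towards CMP and 0 towards LT-HSC, the median being −1.42, and −3.85 without the shallowest cells. Among all genes the shares past 2-fold were 28.1% and 22.7%. The granule genes Elane (0.302 and 634 CPM, with 3 counts in LT-HSC, log2 −10.81, interval −13.31 to −9.49) and Ctsg (7.65 and 1108 CPM, −7.17) and the receptor gene Csf1r (0.201 and 20.8 CPM, with 2 counts in LT-HSC, −6.37, interval −9.75 to −4.81) had the lowest ratios. Klf4, Cebpb and Csf3r had the highest, between 0.24 and 0.84. Mature neutrophil markers (9 genes, such as Camp and Ltf) had a median share of 9.30 per 10000 counts in CMP 1 to 16, 0.299 in CMP 17 to 24 and 3.38 in LT-HSC, with 5 of the 9 at 0 in CMP 17 to 24. Their part in these ratios was not tested. Spi1 itself was at 137 CPM over LT-HSC and 211 over CMP (−0.62).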

How the data were processed

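Per the labels' protocols, RNA of single bone marrow cells was primed with barcoded oligo(dT) that also held molecular identifiers, amplified cDNA was pooled, and 3′ ends were sequenced. The deposited table holds whole-number counts for each gene symbol and cell; mm10, TopHat2 2.0.12, HTSeq and Seurat 2.0 appear in the submitters' processing notes, which give no roles. All 58 cells were used with no filter on cells and no doublet caller. No cell held a count for 10265 of the 23152 symbols. The members and gene lists were chosen with earlier results of these data known.

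Counts were summed per gate and divided by the gate's total to give CPM, with exact Poisson intervals. Before log2 ratios were taken, 0.5 was added to both counts, and intervals were exact conditional binomial ones. Where a gate held no count, a floor of 3 counts stood in. Thinning drew 97978 counts per cell, the 10th percentile of totals, which left out 4 LT-HSC and 2 CMP. The calculation of the ratio and its interval was tested on simulated Poisson counts. In these, all cells of a gate shared 1 mean per gene, scaled to the cell's total, which is what the interval assumes. The simulation therefore does not show that the intervals cover the spread between real cells. List values cover genes with at least 20 counts over both pools. Named by rule were all members, the 5 genes of highest rho for Gata1, Gata2, Klf1 and Fli1 (at least 50 counts and 8 cells in CMP, without predicted models, ribosomal protein and mitochondrially encoded genes), the 3 highest and lowest ratios of each list (at least 50 counts), other GATA genes, Gfi1, Lyl1, Erg and Spi1, and the genes of 18 pairs. Some genes that this rule names are not reported here. Other genes, single cells and the complexes were chosen after their values were seen. Gene coordinates are 1-based from GENCODE M21. Python 3.11.15, numpy 2.4.6, pandas 2.3.3, scipy 1.17.1 and matplotlib 3.10.9 were used.

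Alternatives were median-of-ratios scaling, mean CPM over cells, totals from which ribosomal protein genes were dropped, dropping cells whose total was under 1 part in 3 of the gate's median, an added count of 1, thinning, the runs LT-HSC 1 to 16 and 17 to 34, leaving out CMP 1 and 2, cells without Xist and leaving out each cell. CMP 1 to 16 and CMP 17 to 24 were added after the data were seen.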

Additional observations from a re-analysis of the deposited data

How the results depend on the processing

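The count of members at least 2-fold higher in CMP was 3 and lay between 2 and 3 when each cell was left out. It was 4 with LT-HSC 1 to 16, with CMP 17 to 24 and by mean CPM, where Gata2 joined, and 2 with CMP 1 to 16, where Klf1 dropped out. The count past 2-fold towards LT-HSC was 0, lay between 0 and 1 when each cell was left out, was 3 in cells without Xist, and was 2 with CMP 1 to 16 and 2 with CMP 17 to 24. The median log2 ratio was −0.48. It lay between −0.61 and −0.25 when each cell was left out, and was −0.24 by mean CPM, −0.30 after thinning, −0.23 in cells without Xist, −0.26 with CMP 1 to 16 and −0.25 with CMP 17 to 24. Cells without Xist shifted the median of all genes to 0.70. The erythroid median turned to 0.38 with CMP 17 to 24, and the megakaryocyte median to 4.13 in cells without Xist; the cause was not tested. Of 108 member ratios under the other settings 101 kept their sign, and 518 of 522 did when each cell was left out. No paired analysis was possible because the result comes from no test and cell numbers only name cells. Low totals limit what a count of 0 shows in 1 cell, and the few cells per gate limit every share.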

Other observations

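Of 27 relatives of the 9 genes with at least 20 counts, 10 passed 2-fold towards CMP and 6 towards LT-HSC, where 28.1% and 22.7% of all genes did, and the median log2 ratio was −0.20. Gata3, the GATA factor known for T cells, was at 22.6 CPM over LT-HSC and 0.708 over CMP, a log2 ratio of 4.86 (interval 3.75 to 6.63). It reached 10 counts in 8 of 34 LT-HSC and in 0 of 24 CMP. The T cell markers Cd3e, Cd3g and Cd3d had no count in either gate. Nkg7, the T and NK cell marker among 5 that LT-HSC did hold, gave 3465 counts in 20 of 34 LT-HSC, 3457 of them in LT-HSC 17 to 34. The 5 markers together gave 3015 counts in all 24 CMP. Their part in the Gata3 value was not tested. Gata4, Gata5 and Gata6 had no counts. Ets1 was at 12.4 and 0.991 CPM (3.55). Klf3, a repressor that Klf1 is known to activate, was at 0.403 and 16.6 CPM (−5.20), Elf2 at 6.55 and 66.1 (−3.33), and Lmo1 at 2.82 and 24.4 (−3.09), with all 28 LT-HSC counts of Lmo1 in 1 cell. Gfi1, the relative of Gfi1b that acts in granulocytes, was at 2.62 and 7.08 CPM (−1.42).

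Mast cell and basophil genes, which Gata2 and Gata1 are known to control, were rare in LT-HSC. All 7 with at least 20 counts passed 2-fold towards CMP, beside 28.1% of all genes, the median being −5.39. Prss34 and Ms4a2 had no LT-HSC count and were at least 77.8-fold and 28.1-fold higher in CMP against the floor. Cpa3 was at 10.3 and 250 CPM (−4.60), Mcpt8 at 1.41 and 55.9 (−5.26) and Hdc, with 3 LT-HSC counts, at 0.302 and 14.7 (−5.39, interval −7.91 to −4.02). The list made up 39.0, 30.9 and 14.2 per 10000 counts in CMP 15, 13 and 5, which differed by gene. CMP 15 held 3718 CPM of Cpa3, and CMP 13 held 1582 CPM of Mcpt8 and 1155 of Prss34. Their Gata2 was 138, 89.6 and 9.32 CPM, against a CMP median of 55.1.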
